A study of Mus musculus with 6 samples.

Results

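Glucose breakdown and the response to low oxygen were examined through 37 genes that encode glycolytic enzymes, proteins that handle pyruvate and lactate, the hypoxia-inducible factors (HIF) with their degradation machinery, and hypoxia targets. The genes were listed by name for their known roles, with earlier results of these data known. All 37 were found among the 33460 genes of the deposited data, and all 37 passed the filter on low values, which asked that 3 or more of the 6 libraries reach an FPKM of 1. FPKM scale the sequenced fragments of a gene by its length and by the depth of the library, so levels of different genes are compared per length.

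Brains of 3 mice, taken at postnatal day 6, gave all 6 libraries, and the mice carried both the *NG2-DsRed* and the *Pdgfrb-eGFP* transgene, the latter of the line Tg(Pdgfrb-eGFP)JN169Gsat/Mmucd. In the mural group, 3 libraries were made from cells sorted by FACS for both reporters, and in the fragment group, 3 libraries were made from microvascular fragments that were pulled down with magnetic beads carrying an antibody to CD31 after collagenase digestion and hold endothelial as well as mural cells. Each brain was halved between the procedures, both groups carry the same transgenes, and no group received a treatment. The reporters set the limits of the sort, since some vascular smooth muscle cells show little or no *NG2-DsRed*, and the way of isolation and the cell content cannot be told apart, as they differ together between the groups.

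Glycolysis turns glucose into pyruvate in the cytosol. Hexokinase traps glucose as its phosphate, phosphofructokinase commits it to the pathway, and pyruvate is then either oxidised in mitochondria through pyruvate dehydrogenase or reduced to lactate and exported. In low oxygen the prolyl hydroxylases no longer mark the HIF alpha subunits for destruction by VHL, and the subunits pair with ARNT and bind DNA near many glycolytic and hypoxia genes. HIF-2 alpha, encoded by *Epas1*, is known to be abundant in vascular cells.

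The depth of the fragment libraries was 5.44 to 5.99 M fragments on protein-coding genes and that of the mural cell libraries 1.04 to 2.35 M, so the same FPKM rests on fewer fragments in the mural group. All 12 mural cell markers were higher in the mural group, with a median level at 941% of that in fragments. Endothelial markers were still present in the sorted cells, with a summed FPKM at 74.1% of that in fragments. The 8 microglia markers were all lower, at 7.47 to 14.8% of their level in fragments, and 8 of 10 immediate early and heat shock genes were lower. The 7 fibroblast markers tested were all higher, with the 8 listed genes at a summed FPKM of 917% of that in fragments. Most of this sum came from *Col1a1*, *Col1a2* and *Col3a1*, with mural means of 111, 221 and 213. The paper lists *Col1a2* and *Col3a1* among its mural cell-enriched genes. *Dcn*, *Lum* and *Mfap5* were also higher, *Pdgfra* was 1.59-fold higher, and *Dpt* was near 0 in all libraries and not tested. *Mfap5* passed the filter only through the mural cell libraries, where it was high (2.09 to 5.23, against 0 to 0.18 in fragments). It thus had to differ, and its values are a description, although it is counted among the 7. Among astrocyte markers the summed FPKM was 1129 in mural library 3, against 505 and 412 in mural libraries 1 and 2 and 399 to 563 in the fragment libraries. This sum includes *Atp1b2*, which the paper also lists among its mural cell-enriched genes. Its FPKM was 177, 141 and 218.5 in mural libraries 1, 2 and 3 and 37.3 to 43.2 in fragments, so the sum does not stand for astrocytes alone. In such bulk samples, fewer cells of a type and less RNA per cell cannot be told apart.

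Of the 37 genes, 3 were higher in mural cells (limma on log2(FPKM + 1), adjusted p under 0.05), against a background of 9.34% of the 14801 genes tested. These were *Pdha1*, *Aldoa* and *Epas1*. In the opposite direction, 6 genes were lower, against a background of 13.0%, namely *Hk2*, *Pfkfb3*, *Bnip3*, *Slc16a3*, *Pfkfb4* and *Ddit4*. The other 28 did not pass the test, beside 11491 of the 14801 genes tested, so the share of calls was near the background. All 6 lower genes had a ratio of mean FPKM under 0.5 (background 10.1%), whereas none of the 37 was called more than 2-fold higher (background 6.43%). Without regard to the test, every mural cell library was above every fragment library for 7 genes (background 16.5%) and below for 9 genes (background 24.5%). The median log2 fold change (mural cells minus fragments) was 0.01 over the 37 genes and -0.12 over all genes tested, so a gene at 0 lies slightly above the middle of all genes. No call turned direction under another scaling.

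**Figure D1:**
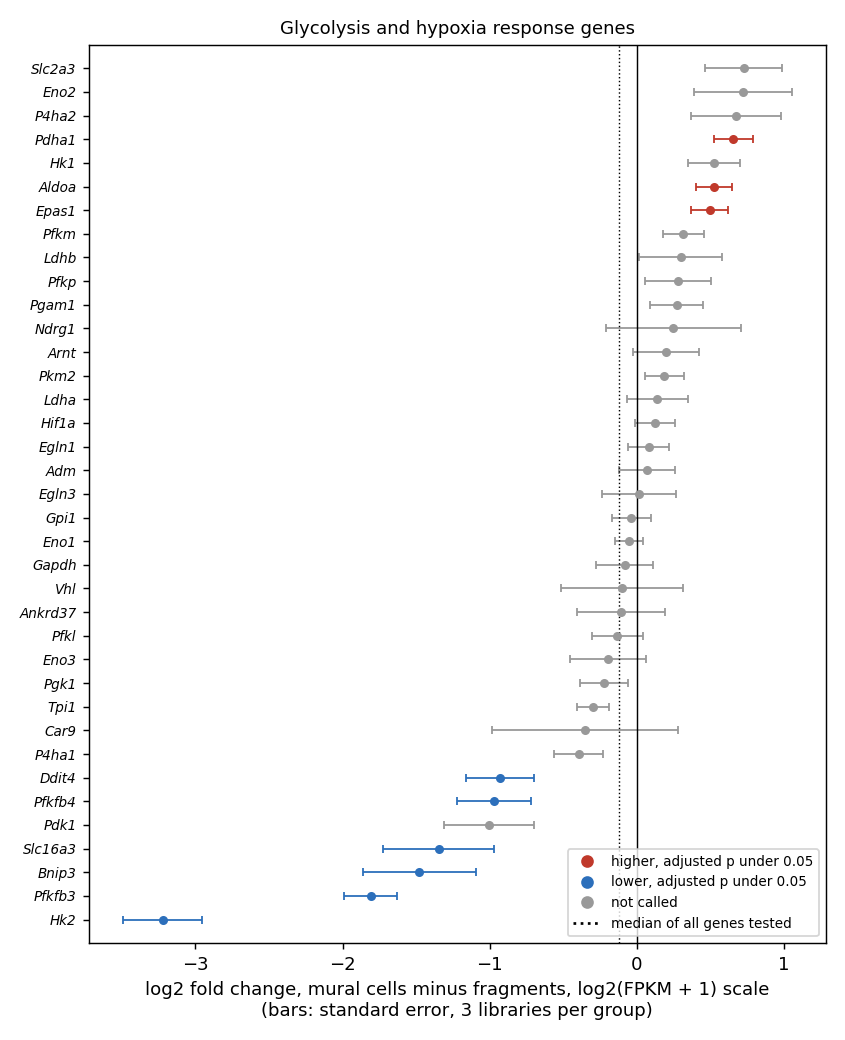
Log2 fold change of each of the 37 genes, mural cells minus fragments, on the log2(FPKM + 1) scale, with bars for the standard error (3 libraries per group). The 6 genes called lower lie between -3.22 and -0.93, the 3 called higher between 0.49 and 0.66, and the dotted line at -0.12 is the median of all 14801 genes tested.

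Promoters were searched for the core ACGTG or GCGTG, which HIF binds. Sequences of 300 bases (250 before to 50 after the annotated start) were taken from RefSeq (GRCm38.p6) for 34 of the 37 genes, while *Slc2a3*, *Epas1* and *Ndrg1* had no entry in the table. The letters ACGTG were searched on both strands (ACGTG or CACGT), which also finds the CACGTG box of other factors. They were present in 23 of 46 promoters of these genes (50%) and in 6447 of all 32851 promoters (19.6%). By call, they were in 6 of 7 promoters of the lower genes, in 2 of 4 of the higher genes and in 15 of 35 of the genes not called. With GCGTG and CACGC added, the share was 80.4% for these genes and 43.8% for all promoters. Windows around the match are given below at their place in NCBIM37, 5′ to 3′ on the strand of the gene. The letters ACGTG and CACGT are in capitals. Each window was placed through its promoter of 300 bases, which matched exactly once on its chromosome. Only promoters with a match are shown, so that *Pfkfb4*, lower, and *Pdha1*, higher, are left out because their promoters hold neither ACGTG nor CACGT. Of the 14 genes not called that hold a match, only *Ldha* and *Pgk1* are shown, as examples. The first 5 belong to genes lower in mural cells, *Ldha* and *Pgk1* to genes that were not called, and *Aldoa* to a higher gene. A match is a description of the letters and not of binding.
Hk2, chr6:82724471-82724525, minus strand: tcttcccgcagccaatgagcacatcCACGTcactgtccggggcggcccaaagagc
Pfkfb3, chr2:11423740-11423794, minus strand: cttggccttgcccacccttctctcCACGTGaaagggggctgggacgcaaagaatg
Slc16a3, chr11:120810342-120810380, plus strand: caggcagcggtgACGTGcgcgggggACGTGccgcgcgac
Ddit4, chr10:59414676-59414730, minus strand: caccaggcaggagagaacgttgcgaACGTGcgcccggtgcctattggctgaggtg
Bnip3, chr7:146101267-146101321, minus strand: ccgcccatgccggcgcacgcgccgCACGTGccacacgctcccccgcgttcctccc
Ldha, chr7:54101115-54101169, plus strand: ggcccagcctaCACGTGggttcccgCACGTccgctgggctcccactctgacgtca
Pgk1, chrX:103382283-103382337, plus strand: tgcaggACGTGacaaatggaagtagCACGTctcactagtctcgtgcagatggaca
Aldoa, chr7:133942865-133942919, minus strand: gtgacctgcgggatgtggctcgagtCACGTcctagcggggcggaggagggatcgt

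In these windows *Slc16a3*, *Ldha* and *Pgk1* hold 2 separate matches of ACGTG or CACGT. The matches of *Pfkfb3* and *Bnip3* and the first of *Ldha* are part of CACGTG. The letters ACGTG or CACGT are thus found beside genes that were lower, higher and not called.

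Glucose enters cells through facilitative transporters, of which *Slc2a3* (GLUT3) is the high-affinity form best known from neurons. Its FPKM was 9.06, 10.1 and 7.98 in fragment libraries 1 to 3 and 16.9, 10.7 and 20.6 in mural cell libraries 1 to 3. Every mural cell library was above the fragment libraries, but mural library 2 by little, and the gene did not pass the test (log2 fold change 0.73, SE 0.26, adjusted p = 0.0896 from limma). It passed when mural library 2 was left out (adjusted p = 0.0184). The summed FPKM of the 8 neuron markers in mural cells was at 57.9% of that in fragments, and 1 of the 7 tested was called lower (background 13.0%). The part of neurons in the *Slc2a3* values was not tested.

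The first step of glycolysis showed the largest difference. *Hk2* (chromosome 6, 82675019 to 82724448), the hexokinase induced by HIF and insulin, had an FPKM of 19.4, 16.4 and 29.0 in the fragment libraries and of 1.32, 1.55 and 1.19 in the mural cell libraries. The groups lay far apart, with mean levels of 21.6 ± 6.61 (SD, n = 3) and 1.36 ± 0.183 (SD, n = 3), a 15.9-fold lower level in mural cells (log2 fold change -3.22, SE 0.27, adjusted p = 0.0003 from limma). Approximately 369 to 723 fragments per library stood behind the values of the fragment group and 5 to 12 behind those of mural cells. When each library was left out in turn, the adjusted p stayed at or below 0.0022.

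*Hk1* (chromosome 10, 61731603 to 61842656), the constitutive hexokinase of brain, did not follow *Hk2*. Its FPKM was 46.1, 38.8 and 35.4 in fragments and 72.3, 51.6 and 51.8 in mural cells. All mural cell libraries were higher, by 1.46-fold in the mean, yet the gene missed the threshold (log2 fold change 0.53, SE 0.18, adjusted p = 0.0728 from limma). With the replicate number as a block the adjusted p was 0.0434.

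The balance of both hexokinases within a library does not depend on the scaling between libraries. *Hk2* made up 29.6, 29.6 and 45.1% of the summed FPKM of *Hk1* and *Hk2* in fragments and 1.80, 2.92 and 2.25% in mural cells. The difference of the means was -32.4 percentage points (two-sided exact permutation test, p = 0.1, the smallest that 3 against 3 libraries can give; 0.3 after adjustment over the 6 shares tested). The groups did not overlap.

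**Figure D2:**
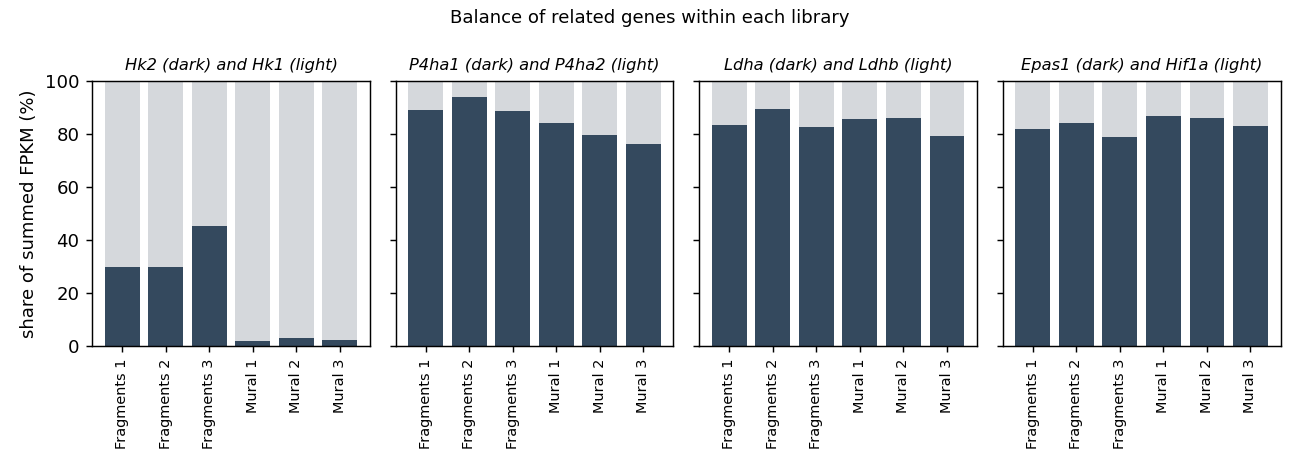
Share (%) of the summed FPKM of related genes that the first-named gene (dark) takes in each of the 6 libraries, with the remainder (light) taken by its relative. *Hk2* takes 29.6 to 45.1% in fragments and 1.80 to 2.92% in mural cells, *P4ha1* is lower in each mural cell library than in any fragment library, and the shares of *Ldha* and *Epas1* overlap between the groups.

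Beyond hexokinase, the enzymes of upper glycolysis varied little. Phosphoglucose isomerase, *Gpi1*, had an FPKM of 154 to 182 in fragments and 143 to 184 in mural cells. The phosphofructokinase genes *Pfkl* and *Pfkp* overlapped between the groups, and *Pfkm* was 1.26-fold higher with no overlap but did not pass the test (adjusted p = 0.158 from limma). The liver form *Pfkl* made up 35.5% ± 6.55 (SD, n = 3) of the summed phosphofructokinase FPKM in fragments and 28.6% ± 2.38 (SD, n = 3) in mural cells (exact permutation p = 0.2, adjusted 0.3). The platelet form *Pfkp* made up 43.6% and 47.6% (exact permutation p = 0.5, adjusted 0.6). It was thus the most abundant of the 3 on average in both groups.

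*Aldoa* (chromosome 7, 133938748 to 133944265), the aldolase of most tissues, which splits fructose bisphosphate, was the only glycolytic enzyme of the list called higher. Its FPKM was 180.4, 172 and 186 in fragments and 294, 253 and 231 in mural cells. The mural cell libraries were all above the fragment libraries, by 1.45-fold in the mean (log2 fold change 0.52, SE 0.12, adjusted p = 0.0209 from limma). The call was kept when any mural cell library was left out and was lost without any 1 of the 3 fragment libraries (adjusted p up to 0.0856) and with no intensity trend (0.0659). *Tpi1*, which interconverts the products of aldolase, had 67.3 to 79.0 in fragments and 58.0 to 61.4 in mural cells, without overlap, and was not called (log2 fold change -0.30, SE 0.11, adjusted p = 0.0987 from limma).

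None of the 7 enzyme genes of lower glycolysis was called (backgrounds 9.34% higher and 13.0% lower), and nothing is read from this count. *Gapdh*, the enzyme of the oxidative step and a common reference gene, had an FPKM of 224, 168 and 282 in fragments and 228, 187 and 211 in mural cells, with overlapping groups (log2 fold change -0.08, SE 0.19). *Eno1*, the ubiquitous enolase, had 183 to 193 in fragments and 179 to 185 in mural cells, and was among the least variable of the 37 (log2 fold change -0.05, SE 0.09). *Pkm2*, the older symbol of the pyruvate kinase gene *Pkm*, had 237 to 295 in fragments and 278 to 333 in mural cells.

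*Pgk1*, which makes the first ATP of the pathway, and *Pgam1* also overlapped, with ratios of 0.842 and 1.19. The neuronal enolase *Eno2* had 6.28, 8.19 and 8.20 in fragments and 7.99, 13.1 and 20.8 in mural cells, and passed the test only without mural library 1 (adjusted p = 0.0382 from limma, against 0.172 with all libraries). The muscle enolase *Eno3* stayed low, at 4.06 to 6.87 over all libraries. Near-identical copies can take reads from several of these genes, namely from *Gapdh* with 65 copies (summed FPKM of copies 94.1 in fragments and 83.5 in mural cells), *Ldha* with 7, *Aldoa* with 4, *Pgam1* with 3, *Pgk1*, *Eno1* and *Bnip3* with 2 each and *Gpi1* with 1, so their levels are less certain. No such copy was found for *Hk2* or *Pfkfb3*.

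Summed over the 15 enzyme genes from hexokinase to pyruvate kinase, the FPKM was 1387, 1254 and 1519 in fragments and 1525, 1481 and 1426 in mural cells. The groups overlapped, with the mural mean at 107% of the fragment mean. The order of the most abundant of the 37 genes was also alike in part. In fragments *Pkm2* came first with a mean of 262 and *Epas1* second with 241, and in mural cells *Epas1* came first with 339 and *Pkm2* second with 297. The same 7 genes (*Pkm2*, *Epas1*, *Gapdh*, *Ldha*, *Eno1*, *Aldoa* and *Gpi1*) took the first 7 places in both groups, all above at least 98.08% of the genes tested. *Pfkfb3* held place 8 in fragments and *Pdha1* in mural cells.

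**Figure D3:**
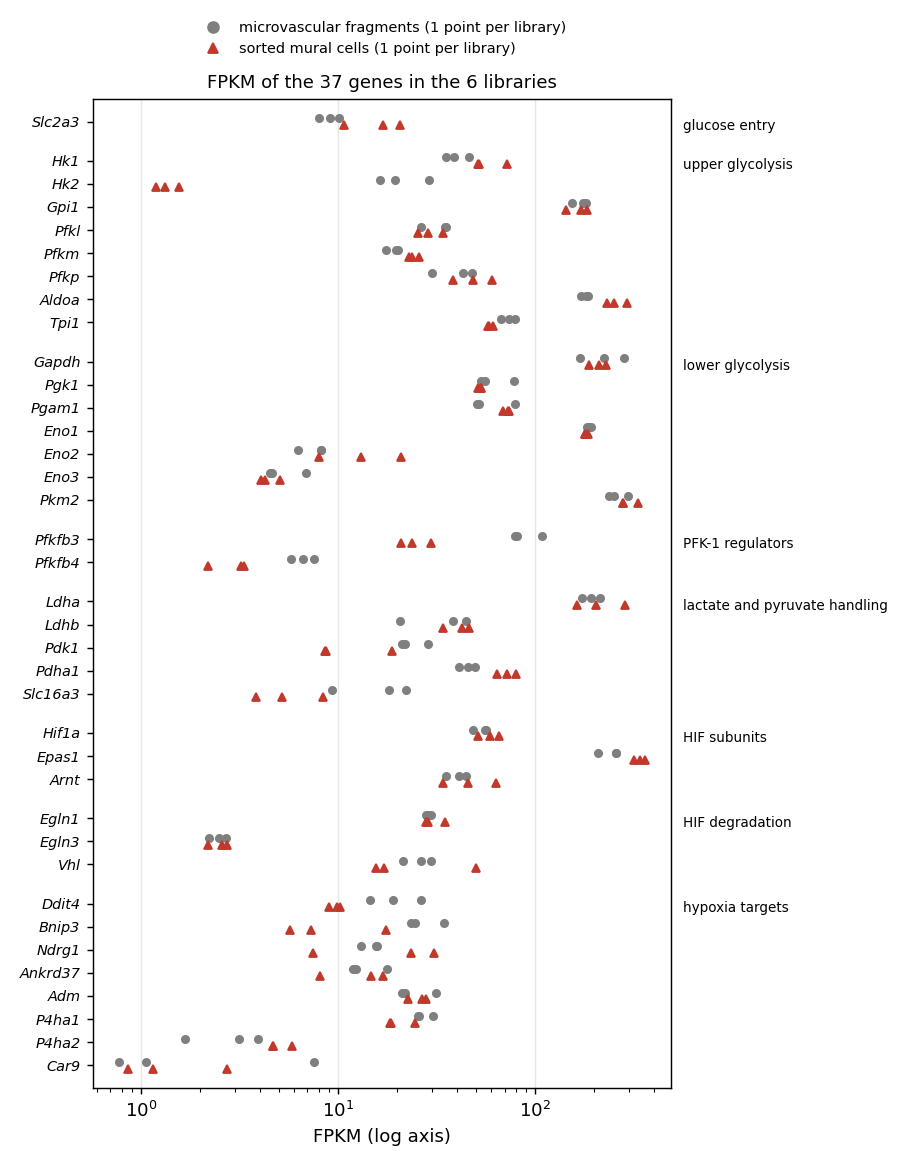
FPKM (log axis) of the 37 genes in the 6 libraries, 1 point per library, ordered by role. The groups lie far apart for *Hk2* (16.4 to 29.0 in fragments, 1.19 to 1.55 in mural cells) and *Pfkfb3* (79.4 to 108 and 21.0 to 29.7), whereas the points of *Gapdh*, *Eno1* and most other glycolytic enzymes overlap.

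The level of fructose 2,6-bisphosphate, the strongest activator of phosphofructokinase, is set by the enzymes of the Pfkfb family. *Pfkfb3* and *Pfkfb4* are among the 37 genes and were lower, whereas *Pfkfb1* and *Pfkfb2*, taken from the list of related genes, were not called, with ratios of 1.48 and 1.20. *Pfkfb3* (chromosome 2, 11393057 to 11423728), the isoform known to drive glycolysis in sprouting endothelial cells, had an FPKM of 80.5, 79.4 and 108 in fragments and 23.7, 21.0 and 29.7 in mural cells. Its mean was 89.4 ± 16.4 (SD, n = 3) in fragments and 24.8 ± 4.47 (SD, n = 3) in mural cells, a 3.61-fold lower level (log2 fold change -1.81, SE 0.18, adjusted p = 0.0006 from limma). Leaving out each library in turn kept the call, with an adjusted p of at most 0.0032.

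*Pfkfb4* (chromosome 9, 108893947 to 108934737), a hypoxia-inducible isoform, was less abundant. Its FPKM was 5.75, 6.61 and 7.55 in fragments and 3.22, 3.34 and 2.19 in mural cells. The groups did not overlap, and the mural mean was 2.28-fold lower (log2 fold change -0.97, SE 0.25, adjusted p = 0.0324 from limma). Only 5 to 18 fragments stood behind each value in mural cells. Without mural library 1 or 2 the call was kept, and without each of the other 4 libraries it was lost (adjusted p up to 0.158), and also with the replicate number as a block (adjusted p = 0.0816), quantile normalization (0.0973) and no filter (0.0643).

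Pyruvate dehydrogenase and its kinase are represented by *Pdha1* and *Pdk1*, of which *Pdha1* was called. *Pdha1* (chromosome X, 156560141 to 156576345), the catalytic alpha subunit of pyruvate dehydrogenase, which feeds pyruvate into mitochondrial oxidation, had an FPKM of 49.6, 40.9 and 45.4 in fragments and 71.9, 64.2 and 80.2 in mural cells. Each mural cell library was higher, by 1.59-fold in the mean (log2 fold change 0.66, SE 0.13, adjusted p = 0.0125 from limma). The call was lost without fragment library 2 (adjusted p = 0.0632) or 3 (adjusted p = 0.0543) and kept without each of the other 4. *Pdk1*, the kinase that switches this enzyme off and a known HIF target, had 21.9, 21.0 and 28.5 in fragments and 8.72, 18.8 and 8.61 in mural cells. All mural cell libraries were lower, although mural library 2 came close to the fragments, and *Pdk1* lay just outside the threshold (log2 fold change -1.0, SE 0.31, adjusted p = 0.0556 from limma). It passed with protein-coding genes alone (adjusted p = 0.0482), with a filter at an FPKM of 5 (adjusted p = 0.0489) and without mural library 2 (adjusted p = 0.0050).

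Lactate dehydrogenase did not differ detectably. *Ldha*, whose subunit favours lactate formation, had an FPKM of 193, 173 and 213 in fragments and 204, 287 and 163 in mural cells, so that mural cells held both the highest and the lowest value (log2 fold change 0.14, SE 0.21, adjusted p = 0.682 from limma). *Ldhb*, the heart form, had 38.3, 20.7 and 44.8 in fragments and 34.3, 46.2 and 42.6 in mural cells (log2 fold change 0.30, SE 0.28, adjusted p = 0.501 from limma). The share of *Ldha* was 83.4, 89.3 and 82.7% in fragments and 85.6, 86.1 and 79.3% in mural cells (difference -1.47 points, exact permutation p = 0.6, adjusted 0.6).

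The exporter of lactate did differ. *Slc16a3* (chromosome 11, 120809794 to 120822182) encodes MCT4, the low-affinity monocarboxylate transporter of glycolytic cells. Its FPKM was 18.2, 9.32 and 22.2 in fragments and 3.81, 5.18 and 8.41 in mural cells. The groups did not overlap, though fragment library 2 lay only slightly above mural library 3, and the mural mean was 2.86-fold lower (log2 fold change -1.35, SE 0.38, adjusted p = 0.0417 from limma). The call was kept without fragment library 2 (adjusted p = 0.0231) or mural library 3 (adjusted p = 0.0283) and lost without each of the other 4 (adjusted p up to 0.156). It was also lost with a pseudocount of 0.1 (adjusted p = 0.0509), quantile normalization (0.0579), no intensity trend (0.0530) and no filter (0.0667).

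Among the HIF subunits, *Epas1* stood out by its level. *Epas1* (chromosome 17, 87153247 to 87232750) had an FPKM of 257, 258 and 209 in fragments and 339, 362 and 317 in mural cells. All mural cell libraries were above the fragment libraries, by 1.41-fold in the mean (log2 fold change 0.49, SE 0.13, adjusted p = 0.0302 from limma), and 1274 to 6031 fragments stood behind each value. The call was kept without mural library 3 (adjusted p = 0.0461) and lost without each of the other 5 (adjusted p up to 0.0870), and also with no intensity trend (0.0822) or no filter (0.0553).

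*Hif1a*, the more widely expressed alpha subunit, had an FPKM of 56.3, 48.3 and 56.0 in fragments and 51.3, 59.0 and 65.6 in mural cells, with overlap (log2 fold change 0.13, SE 0.14, adjusted p = 0.561 from limma). *Epas1* made up 82.0, 84.2 and 78.8% of the summed FPKM of both alpha subunits in fragments and 86.9, 86.0 and 82.9% in mural cells. The groups overlapped (difference 3.53 points, exact permutation p = 0.2, adjusted 0.3), and *Epas1* was the predominant mRNA in every library. *Arnt*, the beta subunit, had 35.1 to 44.4 in fragments and 34.0 to 63.0 in mural cells and was not called.

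The genes that limit HIF were not called either. The prolyl hydroxylase *Egln1* (PHD2) had an FPKM of 28.0 to 29.7 in fragments and 28.0 to 35.0 in mural cells. *Egln3* (PHD3), itself a known HIF target, was low in all libraries, at 2.21 to 2.71 in fragments and 2.18 to 2.75 in mural cells, with 4 to 12 fragments behind each mural value. *Vhl*, the recognition subunit of the ubiquitin ligase, had 21.4 to 29.7 in fragments but 17.1, 15.5 and 49.9 in mural cells, so its mural mean rested on mural library 3, the library with the highest summed astrocyte markers. The part of those cells in this value was not tested.

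Of the 8 hypoxia targets, 2 were lower (background 13.0%), none was higher (background 9.34%) and 6 were not called, and nothing is read from counts this small. *Ddit4* (chromosome 10, 59412423 to 59414518), also named REDD1, an inhibitor of mTORC1 under low oxygen and other stress, had an FPKM of 26.3, 14.6 and 18.9 in fragments and 9.89, 9.04 and 10.3 in mural cells. The mural cell libraries lay close together below all fragment libraries, 2.05-fold lower in the mean (log2 fold change -0.93, SE 0.23, adjusted p = 0.0273 from limma). Leaving out fragment library 2 or mural library 3 kept the call, and leaving out each of the other 4 ended it (adjusted p up to 0.105).

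*Bnip3* (chromosome 7, 146082519 to 146101202), a mitochondrial protein of mitophagy, had 23.4, 24.6 and 34.5 in fragments and 17.5, 7.28 and 5.71 in mural cells. The deepest mural cell library, number 1, was the highest of its group, and the mean was 2.71-fold lower (log2 fold change -1.48, SE 0.38, adjusted p = 0.0306 from limma). The call was kept without mural library 1 (adjusted p = 0.0036) and lost without each of the other 5 (adjusted p up to 0.120) and with no filter (0.0513). Approximately 48, 9 and 7 fragments stood behind the mural values.

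The remaining targets did not move with these genes. *Adm*, the vasodilator peptide adrenomedullin, had an FPKM of 21.2 to 31.6 in fragments and 22.6 to 28.1 in mural cells. *Ankrd37* overlapped as well, at 11.98 to 17.6 and 8.13 to 17.0. *Ndrg1*, a stress response gene, had 15.7, 15.8 and 13.03 in fragments and 7.47, 30.6 and 23.5 in mural cells, and was called higher only without mural library 1 (adjusted p = 0.0295 from limma, against 0.742 with all libraries). *Car9*, the carbonic anhydrase that is a sensitive hypoxia marker, had 7.56, 0.78 and 1.07 in fragments and 1.15, 2.74 and 0.86 in mural cells. Its fragment mean rested on fragment library 1, and from 1 to 63 fragments stood behind its values.

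The collagen prolyl 4-hydroxylases, whose alpha subunits are HIF targets needed for stable collagen helices, differed in their balance without overlap of the groups, at the smallest p that the design allows. *P4ha1* had an FPKM of 25.3, 25.9 and 30.5 in fragments and 24.6, 18.4 and 18.7 in mural cells (log2 fold change -0.40, SE 0.17, adjusted p = 0.142 from limma). *P4ha2* had 3.16, 1.67 and 3.91 in fragments and 4.69, 4.69 and 5.86 in mural cells (log2 fold change 0.67, SE 0.31, adjusted p = 0.164 from limma). Neither passed the test, although neither overlapped between the groups. *P4ha1* made up 88.9, 93.9 and 88.6% of the sum in fragments and 84.0, 79.7 and 76.1% in mural cells, a difference of -10.6 points (exact permutation p = 0.1, the smallest possible, adjusted 0.3). Collagen genes of the fibroblast list were higher in the same libraries, with *Col1a1* at 1285% and *Col3a1* at 849% of their levels in fragments. The part of fibroblasts in this balance was not tested.

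The lower genes were set beside cell type markers and stress genes of the same libraries. In mural cells *Hk2* was at 6.13, 7.21 and 5.53% of its mean in fragments, the summed microglia markers at 11.0, 8.70 and 9.68% and the summed immediate early and heat shock genes at 10.9, 9.77 and 8.41%. *Hk2* thus lay below both sums in each mural cell library. *Pfkfb3* was at 23.5 to 33.2% and the other 4 lower genes at 20.8 to 63.6%. These values lay between those sums and the summed endothelial markers, at 65.6 to 85.4%. The mean levels of single endothelial markers ranged more widely, from 35.3 to 129% of those in fragments, so the sum does not stand for each marker. Within the fragment group, library 3 had the highest *Hk2*, *Pfkfb3*, *Pfkfb4*, *Slc16a3* and *Bnip3*, while *Ddit4* was highest in library 1. Fragment library 3 also had the highest sums of microglia markers and of immediate early and heat shock genes. Not every gene of these lists was highest there. The sums of endothelial and of mural cell markers were lowest in the same library, at 2303 and 420. The part of microglia, of endothelial cells and of the stress genes in the lower values was not tested.

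**Figure D4:**
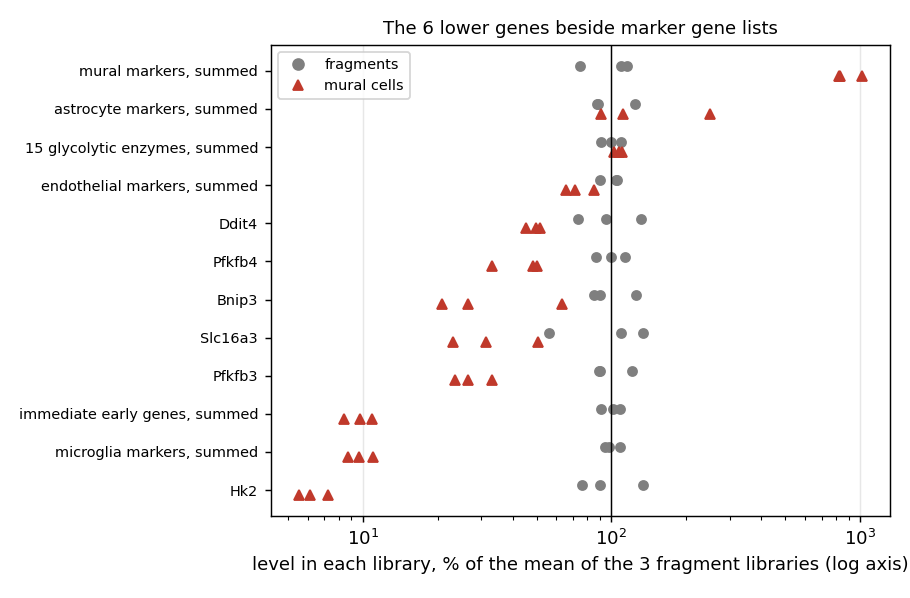
Level of the 6 lower genes and of summed marker lists in each library, as a percentage of the mean of the 3 fragment libraries (log axis). *Hk2* lies beside microglia markers and immediate early genes (5.53 to 11.0% in mural cells), the other lower genes lie at 20.8 to 63.6%, and the 15 glycolytic enzymes together stay at 103 to 110%.

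Other genes of the same pathways were taken from a list of 54, of which 47 passed the filter. Among these, 7 were higher and 6 were lower in mural cells, beside the backgrounds of 9.34% and 13.0% over all genes, and 34 were not called. The median log2 fold change of the 47 was -0.0019. Of 19 tested genes of glucose and pyruvate metabolism 1 was higher and 3 were lower, and of 28 genes of the HIF pathway and its targets 6 were higher and 3 were lower.

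The genes with the largest increase encode variant subunits of the respiratory chain. *Ndufa4l2*, a HIF target that restrains complex I, had an FPKM of 13.4, 14.5 and 5.07 in fragments and 103, 93.6 and 76.9 in mural cells (8.28-fold, log2 fold change 3.05, SE 0.35, adjusted p = 0.0011 from limma). *Cox4i2*, the oxygen-responsive isoform of cytochrome c oxidase subunit 4, had 11.5, 14.2 and 5.68 in fragments and 85.3, 61.0 and 65.1 in mural cells (6.74-fold, log2 fold change 2.71, SE 0.31, adjusted p = 0.0010 from limma). Both had their lowest level in fragment library 3, as did the summed mural cell markers, and their ratios lay within the range of the 12 mural cell markers (647 to 1249% of the level in fragments). Both calls were kept without each library in turn.

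Next came *Pgam2*, the muscle phosphoglycerate mutase, with 2.2 to 2.68 in fragments and 4.44, 12.6 and 15.9 in mural cells. Only 5 to 8 sequenced fragments stood behind each *Pgam2* value in either group, so its ratio is uncertain. The collagen-modifying enzymes *Plod2* and *Lox* followed. *Plod2*, a lysyl hydroxylase, had 7.2 to 9.02 in fragments and 24.2 to 27.2 in mural cells (3.31-fold, log2 fold change 1.61, SE 0.17, adjusted p = 0.0007 from limma), and was called without each library in turn. *Lox*, which cross-links collagen, had 3.12 to 7.90 and 10.4 to 19.6 (2.84-fold, adjusted p = 0.0307 from limma). The calls of *Pgam2* and *Lox* were less stable, since *Pgam2* was kept only without mural library 1 (adjusted p up to 0.0977 without the others) and *Lox* only without fragment library 2 or mural library 1 (up to 0.0940).

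In the opposite direction, *Hk3*, a hexokinase known from myeloid cells, had an FPKM of 14.8, 17.9 and 25.1 in fragments and 0.627, 0.996 and 0.941 in mural cells, the latter from 2 or 3 fragments each. It passed the filter only through the fragment libraries, where it was high, so it had to differ and its values are a description, although it is counted among the 6. Without any 1 of the fragment libraries it no longer passed. The microglia markers, given above, were lower in the same libraries, and their part in this value was not tested. *Bhlhe40*, a HIF-induced repressor, fell by 0.95 on the log2 scale. *Car12*, a membrane carbonic anhydrase, had 8.17, 3.83 and 3.31 in fragments and 1.06, 0.39 and 0 in mural cells. The mural values came from 7, 1 and 0 fragments, and of the mural cell libraries only number 1 reached the FPKM of 1 that the filter asked. The fall of *Car12* by 2.02 on the log2 scale thus rests on mural values near the floor.

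The principal glucose and lactate carriers of the blood-brain barrier also fell. *Slc2a1* (GLUT1) had an FPKM of 316, 317 and 271 in fragments and 217, 202 and 171 in mural cells (log2 fold change -0.62, SE 0.13, adjusted p = 0.0151 from limma), and *Slc16a1* (MCT1) had 208, 244 and 210.0 against 169, 164 and 134 (log2 fold change -0.51, SE 0.13, adjusted p = 0.0322 from limma). The level of *Slc2a1* in mural cells, 65.2% of that in fragments, lay close to the median of the 12 endothelial markers, of which it is 1, at 68.5%. Without fragment library 1 or 2 the calls of *Slc2a1*, *Car12* and *Bhlhe40* were lost (adjusted p up to 0.0694, 0.0806 and 0.0772), and *Slc16a1* was called only without mural library 1 or 2 (up to 0.126 without the others).

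**Figure D5:**
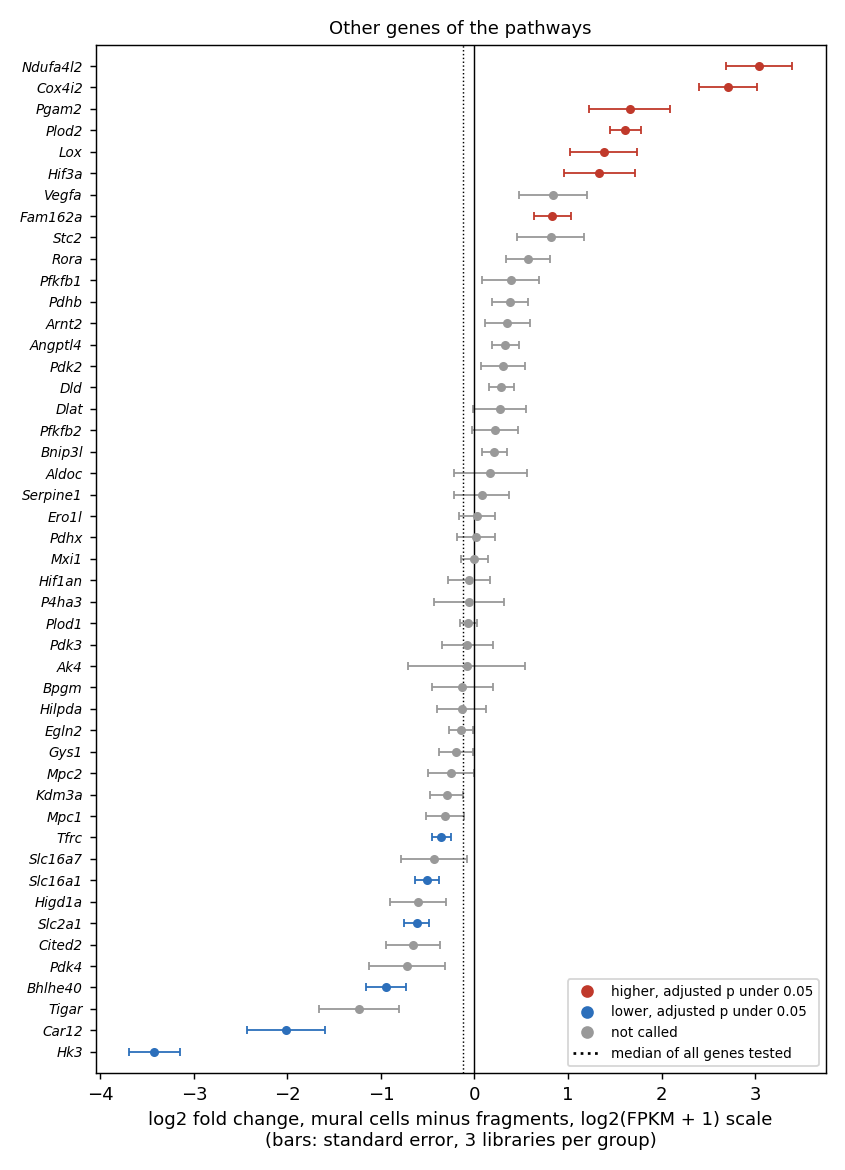
Log2 fold change of the 47 tested genes of the same pathways outside the 37, mural cells minus fragments, on the log2(FPKM + 1) scale with bars for the standard error (3 libraries per group). *Ndufa4l2* (3.05) and *Cox4i2* (2.71) lie at the upper end and *Hk3* (-3.42) at the lower end, and 34 genes were not called.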

How the data were processed

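RNA-seq was performed on 3 libraries of FACS sorted mural cells and 3 of microvascular fragments, grouped by the sample titles. The authors deposited 1 FPKM value per Ensembl gene and library. According to the methods and the submitters' processing notes, reads were aligned to NCBIM37 with TopHat2 2.0.4, duplicates were removed with Picard 1.92, and Cufflinks 2.2.1 was used. Any scaling of FPKM between libraries is not given in the sources used here, and median-ratio factors lay between 0.992 and 1.02. Removing duplicates can lower abundant genes, and splitting reads between copies can shift genes with pseudogenes.

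Of 9 identifiers listed more than once, 1 line was kept. Symbols were taken from GENCODE (NCBIM37) for 33116 of 33460 genes. The groups were compared with limma 3.58.1 in R 4.3.3 on log2(FPKM + 1), using an intensity trend and adjusting p by Benjamini-Hochberg across 14801 genes, those that reached an FPKM of 1 in 3 or more libraries. The pseudocount understates changes of low genes. FPKM are not counts, so no test for counts was used. Fold differences are ratios of mean FPKM. Shares of related genes were compared with a two-sided exact permutation test (SciPy 1.17.1, Python 3.11.15). Depth was derived from single-transcript genes, where 97.8 to 98.5% of low FPKM values were whole multiples of 1 fragment (within 0.1). Fragments per gene assume the longest transcript and are approximate. Copies were found with blastn 2.17.0 (at least 90% identity over at least 50% of the coding sequence). The fit was tested on simulated data.

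The 37 genes, the 54 related genes and the marker lists were chosen with earlier results of these data known. Full values are given for genes with an adjusted p under 0.05, for genes whose balance was compared and for *Hif1a*, *Epas1*, *Ldha*, *Hk2*, *Slc2a3* and *Slc16a3*. The 5 largest and 5 smallest log2 fold changes past the threshold are named among the related genes. Alternatives were a pseudocount of 0.1, median-ratio and quantile scaling, the replicate number as a block, no trend, protein-coding genes alone, no filter on low values or one at 5 FPKM, an adjusted p under 0.01, 1 FPKM added to each gene of a share, and leaving out each library. *Hk1*, *Pdk1* and the other genes named beyond this rule were named after their values were seen.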

Additional observations from a re-analysis of the deposited data

How the results depend on the processing

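The calls of *Hk2* and *Pfkfb3* were kept in every alternative. An adjusted p under 0.01 left 0 genes higher and 2 lower of the 37 (2 more than 2-fold lower), and 3 higher and 1 lower of the related genes. Without a filter 3 of the 37 were lower, all 3 more than 2-fold (*Bnip3*, *Pfkfb4* and *Slc16a3* lost), and 4 related genes were higher. Quantile normalization left 3 more than 2-fold lower and moved the median of all genes from -0.12 to -0.01, and without an intensity trend 1 gene was higher (*Aldoa* and *Epas1* lost). When each library was left out, 0 to 4 of the 37 were higher, 2 to 4 lower, 0 to 1 more than 2-fold higher and 2 to 4 more than 2-fold lower, and of the related genes 3 to 7 were higher and 0 to 6 lower. Such fits assume that the remaining 2 libraries vary like the other group. With the replicate number as a block, 4 of the 37 were higher (*Hk1* added), 5 lower (*Pfkfb4* lost), 6 related genes higher and 5 lower. The sources do not say that numbers mark a brain, and same-numbered libraries deviated together with r of 0.08, 0.02 and 0.05 across genes, so the numbers were not taken as a pairing, although each library correlated best with its own number. Genes that were not called turned direction in 21 of the 740 log2 fold changes computed for named genes under the alternatives. Under quantile normalization the log2 fold changes were 0.0014 for *Eno3* and 0.13 for *Car9*. Leaving out each library in turn gave -0.11 to 0.066 for *Gpi1*, -0.27 to 0.10 for *Gapdh*, -0.078 to 0.33 for *Ldha*, -0.024 to 0.52 for *Ldhb*, -0.022 to 0.41 for *Arnt*, -0.017 to 0.14 for *Egln1*, -0.041 to 0.081 for *Egln3*, -0.62 to 0.19 for *Vhl*, -0.13 to 0.82 for *Ndrg1*, -0.31 to 0.19 for *Ankrd37*, -0.030 to 0.25 for *Adm* and -0.77 to 0.37 for *Car9*. The causes were not tested. The shares of related genes moved by less than the spread between libraries. Still, the difference in the *Ldha* share turned from -1.47 points to 0.62 without fragment library 2 and to 0.73 without mural library 3. That of *Pfkp* fell from 3.96 to 0.35 points without fragment library 3. At the depth of the mural cell libraries, genes with few fragments such as *Hk2*, *Egln3* and *Car9* have uncertain levels there.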
